A study of Mus musculus with 6 samples.

Results

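The probe sets described here are those whose symbols name a gene segment or a whole locus of a T cell receptor or an immunoglobulin. They were found by matching every symbol that the array's annotation lists for a probe set against the name patterns of these segments (Tra, Trb, Trd or Trg and Igh, Igk or Igl with the letter of a variable, diversity, joining or constant part, the Tcra-like locus names, and Ighm, Ighd, Ighe, Igha and Ighg). The name patterns use no measured value, but the members were chosen with earlier results of these data known. It gave 73 of the 45101 probe sets of the array, with 38 different symbols. Among them were 18 T cell receptor probe sets (10 alpha, 3 beta and 5 gamma) and 51 immunoglobulin probe sets (23 heavy chain, 24 kappa and 4 lambda), while 0 carried a delta chain symbol. The other 4 are probe sets of Ighmbp2, a DNA helicase gene whose symbol starts with the same letters. It encodes no receptor segment, and its values are given apart.

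Thymic lymphomas of 6 mice were measured, each on 1 Affymetrix mouse array. All mice were IkL/L, homozygous for a hypomorphic allele of the gene of Ikaros, a zinc finger factor of lymphoid development, and all were CD4-Cre+, so the Cre recombinase was driven by Cd4 regulatory sequence, which becomes active in developing thymocytes. A group of 3 mice, aged 18 to 20 weeks, was Notch1+/+. The other 3 mice, aged 8 to 10 weeks, were Notch1f/f, with both alleles floxed, and their tumours are labelled as carrying a deletion of Notch promoter and exon 1 sequence. Each tumour came from a separate mouse, and tumour cells were freed from the tissue mechanically, with no sorting step in the labels, so other cells of the thymus can be present. Because age and genotype go together in these mice, they cannot be told apart here.

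A T cell receptor is a pair of chains, alpha with beta or gamma with delta. A B cell makes an immunoglobulin from a heavy chain and a kappa or lambda light chain. In the genome these chains lie as arrays of variable, joining and, for some, diversity segments in front of constant regions. The Rag1 and Rag2 recombinase joins 1 segment of each kind in a developing lymphocyte, and the joined variable part is spliced to the constant region in the transcript. A clone of lymphocytes therefore carries its own joins, and a tumour that grew from a clone keeps them. The heavy chain constant region in use is called mu (Ighm) at first, and switching can replace it with gamma (such as Ighg3) or alpha (Igha).

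The arrays were similar in range, with 23.1% to 25% of probe sets above a signal of 100. The 10 measured T cell marker genes (of 12 listed, with Lck and Tcf7 not analysed here) were above 100 in all 6 tumours, and their summed signal ran from 16208 to 23574. The array's controls for 18S ribosomal RNA gave more signal on each Notch1f/f array than on any Notch1+/+ array, for example 249.5 to 318.9 against 64.8 to 125.1 for the 3' control, and the part this difference plays in the values below was not tested. All values are MAS5 signals, in arbitrary units scaled by the authors to the same target on each array. Fold changes, log2 differences and standard errors are on the scale of log2(signal + 16), which understates changes of dim probe sets. In RNA of unsorted tissue, fewer cells of a type and less RNA per cell cannot be told apart. Where the probes lie within these genes was not looked up, so a variable segment's symbol does not show that this segment was in use, and probe sets ending in _x_at can bind several related transcripts. Of the 73 probe sets, 30.1% are of that kind, and 14 list several symbols.

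Only a minority of the receptor probe sets gave a signal that reached 100 in any tumour. That level was reached by 24 of them, 12 of the T cell receptor and 12 of the immunoglobulins, and by 0 of the 4 Ighmbp2 probe sets, whose highest signal was 86.7. By chain these were 4 alpha, 3 beta, 5 gamma, 7 heavy and 5 kappa probe sets, with 0 for lambda. The remaining 49 stayed under 100 in every tumour. The filter on dim probe sets, a mean log2 value at or above the 40th percentile, was passed by 43 of the 73, namely 16 T cell receptor, 24 immunoglobulin and 3 Ighmbp2 probe sets. A probe set that passes through the tumours in which it is high cannot stand for those that did not pass, so the counts below hold for the 43 alone.

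**Figure D1:**
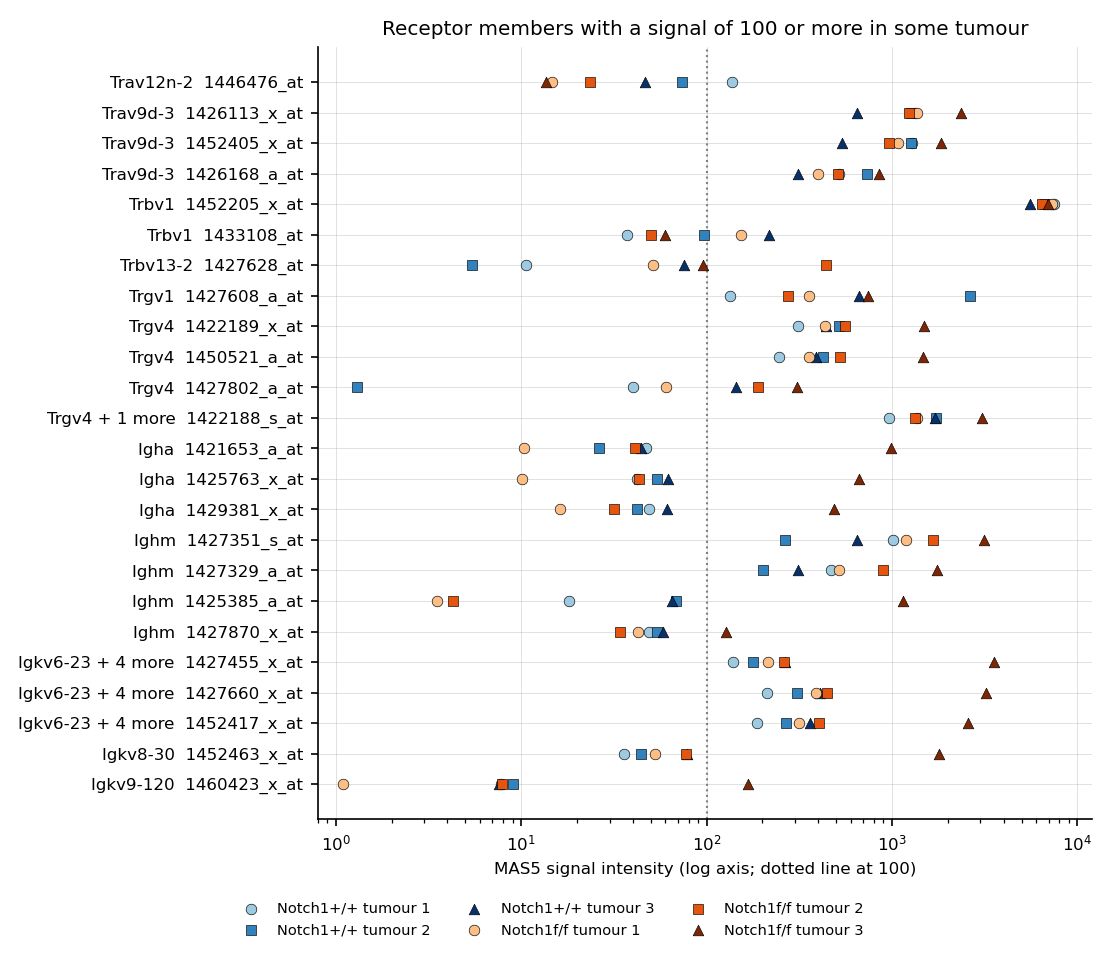
MAS5 signal (log axis, arbitrary units) of the 24 receptor probe sets that reached 100 in some tumour, 1 row per probe set and 1 point per tumour, with blue points for the 3 Notch1+/+ and orange to brown points for the 3 Notch1f/f tumours. In the 12 immunoglobulin rows Notch1f/f tumour 3 is the highest point, at 127.9 to 3552.7, and in the Trgv1 row Notch1+/+ tumour 2 is, at 2636.7.

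The comparison of the Notch1f/f with the Notch1+/+ tumours called 0 of the 43 members tested, against 0.0185% of all probe sets tested (5 of 27022), at an adjusted p under 0.05 in limma. The smallest adjusted p among them was 0.202. At an unadjusted p under 0.05 there were 8, of which 5 were higher in the Notch1f/f tumours (11.6%, against 5.94% of all) and 3 were lower (6.98%, against 7.6%). The higher ones were Trbv13-2, a pair of Ighm probe sets, Igkv14-111 and Ighv14-2, and the lower ones Trav12n-2 and a pair of Trav9d-3 probe sets. Igkv14-111 and Ighv14-2 did not pass the filter without Notch1f/f tumour 3, so the share of higher members rests in part on the filter. The signals of the groups did not overlap for 8 of the 43, which is 18.6%, the same share as over all probe sets tested (18.6%). Of these 8, 5 were higher (11.6% against 8.13%) and 3 were lower (6.98% against 10.4%). The share that did not overlap was therefore that of the array as a whole. The higher ones included Iglv1, which did not pass the filter without Notch1f/f tumour 2 or without Notch1f/f tumour 3. With a tumour left out, the members' share lay above that of all probe sets in some cases and below it in others. It was 41.9% (18 of 43) against 28% without Notch1+/+ tumour 3, 40% (18 of 45) against 25.5% without Notch1f/f tumour 1 and 33.3% against 26% without Notch1f/f tumour 3. It was 22.2% against 34.5% without Notch1+/+ tumour 1, 18.2% against 26.2% without Notch1+/+ tumour 2 and 18.6% against 37.3% without Notch1f/f tumour 2.

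The direction was less even among the members that passed the filter. A log2 difference above 0, that is a higher mean in the Notch1f/f tumours, was found for 34 of the 43 (79.1%), against 45% of all probe sets tested. Their median log2 difference was 0.37, and that of all probe sets tested was -0.04. The immunoglobulin probe sets had a median of 0.52, with 22 above 0 and 2 below. The T cell receptor probe sets had a median of 0.13, with 10 above and 6 below. Leaving out Notch1f/f tumour 3 brought the median of all members tested to 0.07, that of the immunoglobulin probe sets to 0.08, with 7 above 0 and 7 below among the 14 that then passed the filter, and that of the T cell receptor probe sets to 0.00, with 8 above and 8 below. The T cell receptor median was -0.04 without Notch1+/+ tumour 3. The filter let in 24 immunoglobulin probe sets with all tumours and 14 without Notch1f/f tumour 3, so the counts above 0 partly follow from this choice. With no filter the median was 0.25 over all 73 members, against -0.02 over all probe sets. It was then 0.28 for the immunoglobulin and 0.07 for the T cell receptor probe sets.

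**Figure D2:**
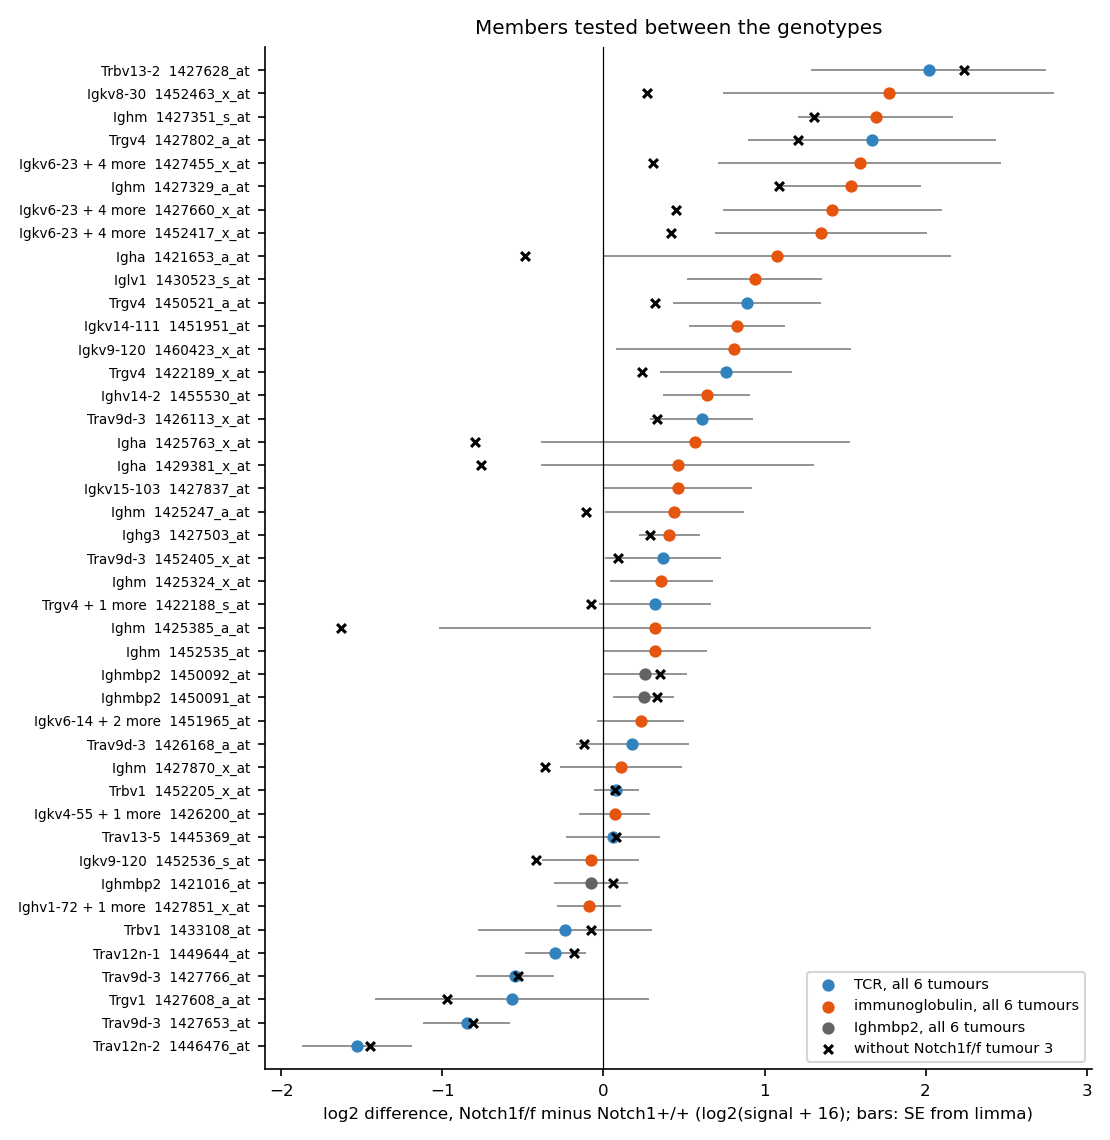
Log2 difference, Notch1f/f minus Notch1+/+ on the log2(signal + 16) scale, for the 43 members that passed the filter (filled points, with the limma standard error as a bar) and the same without Notch1f/f tumour 3 (crosses, where the probe set still passed). Igha crosses lie below 0 while the points with all 6 tumours lie above 0, and the Trav12n-2 values lie at -1.53 and -1.45.

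Among the alpha chain probe sets the clearest separation was that of Trav12n-2, a variable segment, on chromosome 14. Its signals were 137.4, 73.8 and 46.4 in Notch1+/+ tumours 1 to 3 and 14.6, 23.4 and 13.6 in Notch1f/f tumours 1 to 3. Every Notch1+/+ value lay above every Notch1f/f value, and all Notch1f/f values lay under 24. The means were 85.9 ± 46.7 (SD, n = 3) and 17.2 ± 5.39, with a log2 difference of -1.53 ± 0.34 (SE). This was the probe set with the smallest limma adjusted p of all members, 0.202, and it did not pass. Trav9d-3 and Trav12n-1, further variable segments, each had a probe set with lower signals in all 3 Notch1f/f tumours. That of Trav9d-3 (1427766_at) had 8.3 to 28.7 against 4.6 to 6.2 (log2 difference -0.55 ± 0.24, limma adjusted p = 0.355). That of Trav12n-1 had 10.5 to 17.7 against 4.0 to 10.4 (-0.30 ± 0.19, limma adjusted p = 0.510). Both were below 30 throughout, where signal cannot be told from background without detection calls.

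Trav9d-3 was listed for 5 probe sets, which did not share a direction. The first, 1426113_x_at, had 1324.9, 1274.7 and 649.9 in the Notch1+/+ tumours and 1357.2, 1240.8 and 2372.3 in the Notch1f/f tumours. The log2 difference was 0.61 ± 0.32 (limma adjusted p = 0.427). Notch1f/f tumour 3 was the highest and Notch1+/+ tumour 3 the lowest, and the other 4 tumours lay between 1240.8 and 1357.2. The same tumours were the highest and the lowest on 1452405_x_at, with 1832.1 and 538.7, and on 1426168_a_at, with 855.3 and 313.0. The dimmer 1427653_at, with 27.1, 29.4 and 8.4 against 8.8, 1.2 and 3.3, had a log2 difference of -0.85 ± 0.27 (limma adjusted p = 0.291). Thus 3 of the 5 Trav9d-3 probe sets had differences above 0 and the 2 dim ones below 0. Without Notch1+/+ tumour 3, 1426113_x_at was at 0.29, 1452405_x_at at -0.04 and 1426168_a_at at -0.14. Tcra, Trav6-3 and Trav13-5 stayed under 24 in every tumour, and of these Trav6-3 had higher signals in all Notch1+/+ tumours (5.5 to 20.6) than in the Notch1f/f tumours (0.4 to 2.9), but it did not pass the filter.

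The beta chain held a member with close signals in all tumours and the only T cell receptor member that met the rule for a high signal in 1 tumour. Trbv1 (1452205_x_at), a variable segment on chromosome 6, had 7479.9, 6677.1 and 5529.0 in the Notch1+/+ tumours and 7323.3, 6416.8 and 6951.8 in the Notch1f/f tumours. Its means, 6562 ± 981 (SD, n = 3) and 6897 ± 456, differed by a log2 value of 0.08 ± 0.14 (limma adjusted p = 0.827), and the groups overlapped. The other Trbv1 probe set, 1433108_at, was far more variable between tumours, with 37.4, 97.2 and 216.6 against 153.5, 50.4 and 59.5, and its groups overlapped too. A pair of probe sets under the same symbol therefore differed in how much they varied between tumours.

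Trbv13-2 (1427628_at), another beta variable segment, was high in Notch1f/f tumour 2. It had 10.6, 5.4 and 75.7 in the Notch1+/+ tumours and 51.7, 442.5 and 96.3 in the Notch1f/f tumours. On the scale of signal + 16, Notch1f/f tumour 2 was 4.08-fold above the next tumour, Notch1f/f tumour 3, just past the 4-fold used here to call a probe set high in 1 tumour. With quantile normalisation, median centring or a pseudocount of 64 it was no longer counted as high in 1 tumour. The group means were 30.6 ± 39.2 (SD, n = 3) and 197 ± 214, a log2 difference of 2.02 ± 0.73, the largest of all members tested, with a limma adjusted p of 0.306. The groups overlapped, since Notch1+/+ tumour 3 lay above Notch1f/f tumour 1. Leaving out Notch1f/f tumour 2 brought the log2 difference to 1.22, and leaving out Notch1+/+ tumour 3 brought it to 2.67.

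The beta locus also holds genes that are not receptor segments, among them trypsinogen genes, and 1 of these was high in the same tumour. Prss2, which encodes a trypsinogen, a digestive protease of the pancreas, directly precedes the diversity segment Trbd1 in the order of genes of the mouse assembly GRCm38.p6, with 0 genes between them and 30 between Prss2 and Trbv13-2. All 4 of its probe sets were high in Notch1f/f tumour 2 alone. That of 1417682_a_at had 1187.0 in that tumour and 1.7 to 19.5 in the other 5. That of 1433459_x_at had 1803.3 and 5.2 to 39.2. The ratio of Notch1f/f tumour 2 to the next tumour, again on signal + 16, was 28.7 to 34.5 for the 4 probe sets. The groups overlapped on all 4 (log2 differences from 1.89 to 2.23, limma adjusted p from 0.468 to 0.51). The other measured genes within the locus that are not segments (Prss58, Prss3, 2210010C04Rik and 1700074P13Rik) had signals of at most 30.0 in any tumour. Genes of this kind measured within the alpha and delta locus (4 genes) and the heavy chain locus (2 genes) stayed under 100 in all tumours. These neighbours were looked at because Prss2 is among the 8 probe sets high in Notch1f/f tumour 2, so their choice follows from values already seen. Of those 8 probe sets, Trbv13-2 and Prss2 account for 5. The others are Ccnb1ip1, at 114.1 there against at most 8.4 elsewhere, and 2 probe sets with no symbol in the annotation used.

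**Figure D3:**
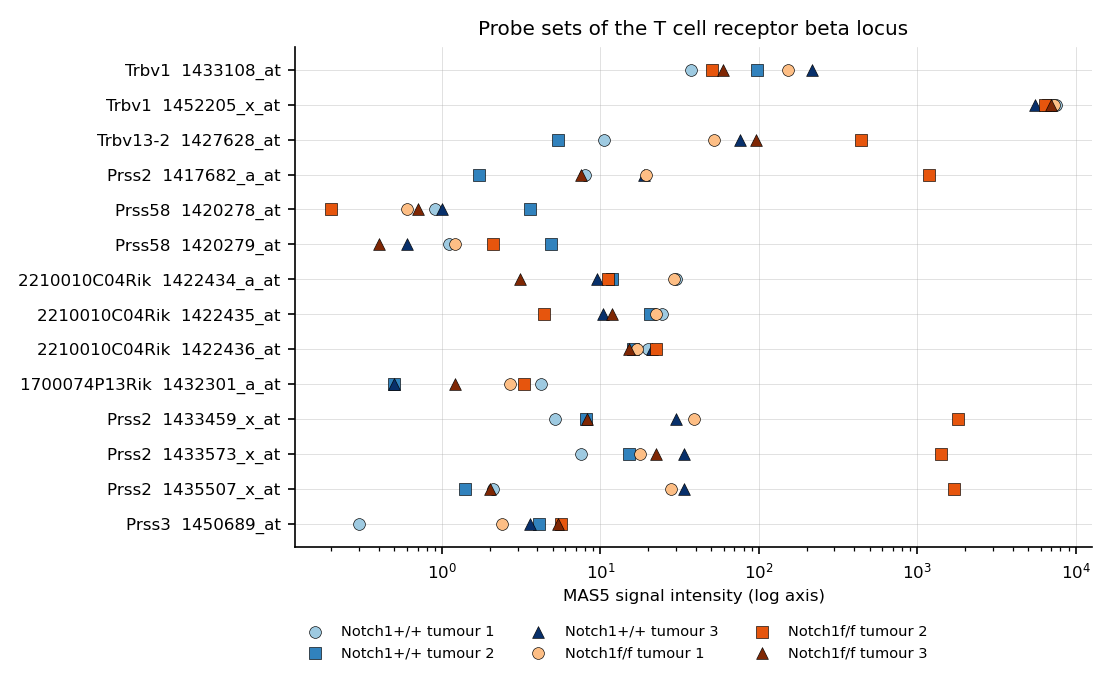
MAS5 signal (log axis, arbitrary units) of the T cell receptor beta probe sets and of the other measured genes that lie within the beta locus, 1 row per probe set and 1 point per tumour. Notch1f/f tumour 2 stands to the right on the 4 Prss2 rows, at 1187.0 to 1803.3, and on the Trbv13-2 row, at 442.5, and the 6 tumours lie close together on the row of Trbv1 1452205_x_at, from 5529.0 to 7479.9.

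All 5 gamma chain probe sets reached 100, and the tumours differed by several-fold without separating by genotype. Trgv1 (1427608_a_at), a variable segment on chromosome 13, had 133.5, 2636.7 and 661.5 in the Notch1+/+ tumours and 358.9, 274.5 and 745.0 in the Notch1f/f tumours. Notch1+/+ tumour 2 lay 3.49-fold above the next tumour, which places Trgv1 just outside the 4-fold used here. Its means of 1144 ± 1319 (SD, n = 3) and 459 ± 251 gave a log2 difference of -0.57 ± 0.85 (limma adjusted p = 0.796). Single tumours turned or moved this value, which was 0.45 without Notch1+/+ tumour 2 and -1.62 without Notch1+/+ tumour 1.

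Trgv4, another variable segment of the locus, was highest in Notch1f/f tumour 3 on each of its probe sets. Its 1422189_x_at had 312.1, 516.8 and 443.6 in the Notch1+/+ tumours and 436.3, 555.1 and 1484.3 in the Notch1f/f tumours. On 1450521_a_at it had 246.4, 423.4 and 390.4 against 356.4, 526.3 and 1464.3. Without Notch1f/f tumour 3 the log2 differences of these probe sets went from 0.76 ± 0.41 to 0.24 and from 0.89 ± 0.46 to 0.32. The third, 1427802_a_at, ranged most widely, with 40.3, 1.3 and 144.1 against 60.1, 188.7 and 306.3, so that the tumour highest for Trgv1 was the lowest here. The probe set that lists both Trgv4 and Trgv2, 1422188_s_at, had 962.2 to 1723.0 in the Notch1+/+ and 1327.1 to 3066.6 in the Notch1f/f tumours. None of these passed (limma adjusted p from 0.379 to 0.707), and the groups overlapped on all of them. The gamma probe sets had a median log2 difference of 0.76, the alpha probe sets of -0.12 and the beta probe sets of 0.08.

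Markers of gamma-delta T cells were set beside these values. Of 8 genes measured (of 10 listed), 3 were highest in Notch1+/+ tumour 2, the tumour high for Trgv1. They were Sox13, a transcription factor, at 109.5 against 2.7 to 36.5 in the other tumours, Blk, a kinase also used by B cells, at 151.3 against 2.3 to 51.0, and Etv5, at 316.4 against 25.8 to 159.9. Cd163l1 was highest in Notch1f/f tumour 3 (648.7) and next in Notch1+/+ tumour 2 (449.7), with 70.6 to 222.0 in the others. Summed over the list, Notch1+/+ tumour 2 had 1682, Notch1f/f tumour 3 had 1399 and the other 4 had 852 to 1072. The rest of the list did not share the high value of Notch1+/+ tumour 2. Maf was highest in Notch1f/f tumour 1 (84.2), with 20.7 in Notch1+/+ tumour 2 and 7.5 to 39.6 in the others. Its log2 difference was 0.87 ± 0.37 (limma adjusted p = 0.354). Zbtb16 was lowest in Notch1+/+ tumour 2, at 6.1 against 6.4 to 13.6, and Cd27 had 620.9 there against 462.1 to 784.6. Il17a stayed at or under 9.0 everywhere. The part of such cells in the Trgv1 and Trgv4 signals was not tested.

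Immunoglobulin probe sets were most often highest in Notch1f/f tumour 3. This tumour had the highest of the 6 signals on 38 of the 51 (74.5%), against 18.6% of all probe sets on the array, and on 7 of the 18 T cell receptor probe sets (38.9%). It was also the highest on all 12 immunoglobulin probe sets that reached 100, where 22.1% of all probe sets reaching 100 were highest in it. For 7 of these 12 no other tumour reached 100, so that the choice by level alone set which tumour was highest, and the 12 are given as a description. For the other 5 a further tumour reached 100 as well.

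The mu constant region was the heavy chain signal found in every tumour. Ighm, on chromosome 12, was the only symbol of 11 probe sets, and since they share a gene they are not counted as separate measures. On 1427351_s_at it had 1016.7, 266.3 and 644.2 in the Notch1+/+ tumours and 1194.9, 1665.3 and 3153.1 in the Notch1f/f tumours. On 1427329_a_at it had 469.1, 200.8 and 313.0 against 516.4, 889.9 and 1751.5. On both, all 3 Notch1f/f tumours lay above all 3 Notch1+/+ tumours, with Notch1f/f tumour 1 only just above Notch1+/+ tumour 1. The means were 2004 ± 1022 (SD, n = 3) against 642 ± 375 for the first and 1053 ± 633 against 328 ± 135 for the second. The log2 differences were 1.69 ± 0.48 and 1.54 ± 0.43, or 3.22-fold and 2.91-fold, and neither passed (limma adjusted p = 0.267 for each). Without Notch1f/f tumour 3 these differences were 1.31 and 1.09.

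Other Ighm probe sets gave another picture. On 1425385_a_at Notch1f/f tumour 3 had 1147.4, while the Notch1+/+ tumours had 18.2, 68.7 and 65.2 and the other Notch1f/f tumours 3.5 and 4.3. That tumour was 13.7-fold above the next on the scale of signal + 16, and the remaining Notch1f/f tumours were the lowest of all. The log2 difference was 0.32 ± 1.34 (limma adjusted p = 0.933) with all tumours, -1.63 without Notch1f/f tumour 3, -0.10 without Notch1+/+ tumour 1, -0.56 with a pseudocount of 1 and -0.55 with array weights. Ighm 1427870_x_at had 34.2 and 42.6 in Notch1f/f tumours 2 and 1, 49.0 to 58.4 in the Notch1+/+ tumours and 127.9 in Notch1f/f tumour 3 (log2 difference 0.11 ± 0.38, limma adjusted p = 0.919, or -0.36 without that tumour and -0.04 with array weights). The rest of the probe sets with Ighm as their only symbol stayed under 100, the highest being 1425247_a_at, at 78.2 in Notch1f/f tumour 3 and 8.2 to 23.3 in the others.

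Igha, the constant region of immunoglobulin A, was high in Notch1f/f tumour 3 alone on all 3 of its probe sets. On 1421653_a_at it had 47.3, 26.3 and 44.1 in the Notch1+/+ tumours and 10.4, 41.0 and 991.8 in the Notch1f/f tumours. On 1425763_x_at it had 42.1, 54.1 and 62.0 against 10.1, 43.1 and 664.0, and on 1429381_x_at 48.9, 42.2 and 61.4 against 16.2, 31.5 and 484.4. Notch1f/f tumour 1 was the lowest on each of the 3, so that the groups overlapped and the highest and lowest tumours shared a genotype. The ratios of Notch1f/f tumour 3 to the next tumour were 15.9, 8.72 and 6.47. The log2 differences, 1.08 ± 1.08, 0.57 ± 0.96 and 0.46 ± 0.85 (limma adjusted p = 0.678, 0.818 and 0.834), became -0.49, -0.80 and -0.76 without that tumour, and that of 1425763_x_at was -0.03 with array weights.

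Ighg3, a gamma constant region, did not share this signal. Its 4 probe sets had at most 21.8 in any tumour, the highest value being that of 1427503_at in Notch1f/f tumour 3. On this probe set the Notch1f/f tumours had 13.9, 13.5 and 21.8 and the Notch1+/+ tumours 8.0, 10.5 and 6.5, without overlap but at the dim end (log2 difference 0.41 ± 0.19, limma adjusted p = 0.377). Heavy chain variable segments were as dim. Ighv14-2 had 0.7 to 10.1 in the Notch1+/+ and 7.3 to 28.3 in the Notch1f/f tumours (log2 difference 0.64 ± 0.27, limma adjusted p = 0.349). Without Notch1f/f tumour 3 it did not pass the filter.

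The kappa light chain was high in the same tumour. A set of 3 probe sets lists the same 5 symbols, Igkv6-23, Igkv4-53, Igkv8-30, Igkj1 and Igkc, that is variable segments, a joining segment and the kappa constant region, on chromosome 6. On 1427455_x_at the Notch1+/+ tumours had 139.1, 178.3 and 263.9 and the Notch1f/f tumours 215.0, 260.4 and 3552.7. On 1427660_x_at they had 212.4, 307.5 and 407.7 against 389.6, 444.1 and 3213.2, and on 1452417_x_at 187.2, 269.2 and 359.9 against 314.2, 404.4 and 2564.0. Each of the other 5 tumours thus had a kappa signal above 100 on these probe sets, and Notch1f/f tumour 3 stood 12.7-fold, 7.02-fold and 6.14-fold above the next. Their log2 differences were 1.59 ± 0.88, 1.42 ± 0.68 and 1.35 ± 0.66 (limma adjusted p = 0.447, 0.393 and 0.402), and 0.31, 0.45 and 0.42 without that tumour.

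A probe set each of Igkv8-30 and Igkv9-120, named for a kappa variable segment alone, was also high in Notch1f/f tumour 3. Igkv8-30 (1452463_x_at) had 36.1, 44.5 and 78.7 in the Notch1+/+ tumours and 52.9, 77.9 and 1802.1 in the Notch1f/f tumours, the largest ratio to the next tumour of all members, at 19.2. Its log2 difference was 1.77 ± 1.03 (limma adjusted p = 0.468), and 0.27 without Notch1f/f tumour 3. Igkv9-120 (1460423_x_at) had 7.8, 9.0 and 7.6 against 1.1, 7.9 and 168.2, a ratio of 7.37 (log2 difference 0.81 ± 0.73, limma adjusted p = 0.641). The other Igkv9-120 probe sets did not share this signal. On 1452536_s_at the values were 9.0, 8.8 and 17.9 against 3.4, 5.8 and 26.2, a ratio of 1.24 (-0.08 ± 0.30, limma adjusted p = 0.924). On 1427750_at, which did not pass the filter, Notch1f/f tumour 3 had 3.0, below the 4.5 to 9.7 of the Notch1+/+ tumours. Of the further kappa variable segments, Igkv14-111 had the smallest p, with a mean of 20.3 ± 15.0 (SD, n = 3) in the Notch1f/f and 3.27 ± 2.80 in the Notch1+/+ tumours (log2 difference 0.83 ± 0.30, limma adjusted p = 0.304). Neither this probe set nor 1460423_x_at passed the filter without Notch1f/f tumour 3. The 19 kappa probe sets other than the 5 described first stayed under 100 in every tumour. Outside the name patterns, 4 probe sets carry the symbol Igk for the whole locus, and 1452557_a_at among them had 66.6 in Notch1f/f tumour 3 and 6.8 to 16.7 in the others. In the same tumour 1425738_at had 42.6 against 0.9 to 2.2, and 1426178_at had 15.3 against 0.8 to 1.6. On 1427757_at that tumour was the lowest, at 0.4 against 0.5 to 4.6.

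Lambda signals were dim throughout. The only lambda probe set that passed the filter, Iglv1 (1430523_s_at) on chromosome 16, had 0.9, 1.3 and 1.7 in the Notch1+/+ tumours and 2.6, 10.4 and 58.7 in the Notch1f/f tumours. All but 2 of these values lay under the filter's signal of 7.6, and the probe set passed only through Notch1f/f tumours 2 and 3, without either of which it was not tested. The log2 difference was 0.94 ± 0.42 (limma adjusted p = 0.373). The other 3 lambda probe sets, of Iglv1 or of Iglc1 with Iglv1, did not pass the filter. Among them 1424931_s_at had at most 33.8.

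**Figure D4:**
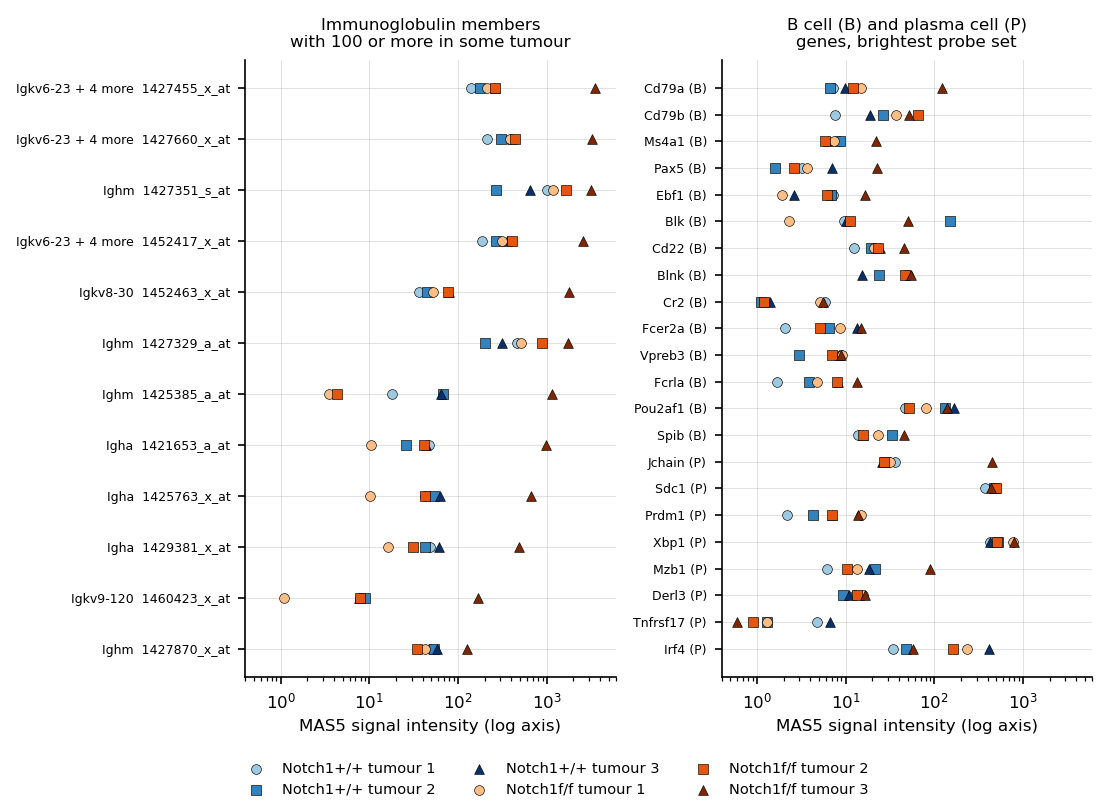
MAS5 signal (log axes, arbitrary units) of the 12 immunoglobulin probe sets that reached 100 in some tumour (left) and of listed B cell (B) and plasma cell (P) genes, each by its brightest probe set (right), with 1 point per tumour. Notch1f/f tumour 3 is the highest point in all 12 rows on the left, and on the right it stands apart for Jchain, at 445.9, Cd79a, at 121.4, and Mzb1, at 89.0, while Ms4a1 and Pax5 reach 22.1 and 22.9.

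B cell and plasma cell markers were set beside the immunoglobulin values. Of the 14 B cell genes measured (of 15 listed), 9 were highest in Notch1f/f tumour 3, and 11 stayed under 100 in every tumour. Their summed signal was 614 in that tumour and 186 to 426 in the other 5. Cd79a, a signalling chain of the B cell receptor, had 121.4 there against 6.7 to 15.0 elsewhere, a ratio of 4.43 to the next tumour. Cd79b, its partner chain, had 37.0, 64.8 and 52.1 in the Notch1f/f and 7.6, 26.4 and 18.7 in the Notch1+/+ tumours, without overlap (log2 difference 1.02 ± 0.29, limma adjusted p = 0.267). Blnk had 48.3, 46.6 and 55.2 against 50.5, 23.9 and 15.5 (0.59 ± 0.30, limma adjusted p = 0.414). Cd22 had 20.7, 23.4 and 45.3 against 12.4, 19.4 and 24.5 (0.37 ± 0.26, limma adjusted p = 0.549). The defining B cell genes Ms4a1 and Pax5, named here after their values were seen, had 22.1 and 22.9 in Notch1f/f tumour 3 and at most 8.7 and 7.0 elsewhere. Of the 9 B cell genes tested, 7 had a log2 difference above 0 and 2 below. Those below were Pou2af1 and Blk. Pou2af1 had 47.3, 133.2 and 165.7 in the Notch1+/+ and 80.5, 51.9 and 138.4 in the Notch1f/f tumours (-0.25 ± 0.44, limma adjusted p = 0.824). Blk was highest in Notch1+/+ tumour 2, at 151.3, with 51.0 in Notch1f/f tumour 3 (-0.58 ± 0.72, limma adjusted p = 0.743).

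Of the 8 plasma cell genes measured (of 9), 4 were highest in Notch1f/f tumour 3. Jchain, the chain that joins secreted immunoglobulin A or M into multimers, had 445.9 in that tumour and 25.7 to 36.2 in the other 5, a ratio of 8.85. Without the tumour its log2 difference went from 1.10 ± 0.77 to -0.01. Mzb1, a chaperone of immunoglobulin secretion, had 89.0 against 6.1 to 21.2, while Sdc1 had 371.0 to 501.5 in all tumours and Tnfrsf17, a receptor of plasma cells, at most 6.7. Xbp1 had 424.5, 518.4 and 428.8 in the Notch1+/+ and 766.0, 507.7 and 800.9 in the Notch1f/f tumours (0.56 ± 0.22, limma adjusted p = 0.339). Prdm1 had 2.2, 4.3 and 7.0 against 14.9, 7.1 and 13.9 (0.44 ± 0.18, limma adjusted p = 0.348). Derl3 had 9.3 to 12.8 against 13.6 to 16.5 (0.21 ± 0.17, limma adjusted p = 0.603). Irf4 was highest in Notch1+/+ tumour 3 (415.9), with 56.9 in Notch1f/f tumour 3. The summed plasma cell signal was 1865 in Notch1f/f tumour 3 and 892 to 1547 in the others. Vpreb1 and Igll1, the surrogate light chains of early B cells, had at most 8.0 and 21.1. Macrophage markers were highest in Notch1f/f tumour 3 as well, for 7 of 9 genes, with a sum of 2864 against 248 to 1469. Of all probe sets on the array, 18.6% were highest in this tumour. Its sums were also the highest for the T cell genes (23574 against 16208 to 20822) and for listed natural killer (NK and NKT) cell genes (4496 against 1639 to 2827). The sum of the listed pro-B and pre-B cell genes was not, at 2356 against 2171 to 3148. The part of B cells, plasma cells or macrophages in the immunoglobulin signals of this tumour was not tested.

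Read per tumour rather than per genotype, receptor members were more often high in 1 tumour than other probe sets. The rule used was at least 4-fold above the next tumour on the scale of signal + 16 and a signal of 100 or more. By it, 10 of the 73 were high in 1 tumour (13.7%), against 0.187% of all probe sets (84 of 45037). Among probe sets reaching 100 in some tumour, it was 10 of the 24 members, against 0.615% of all. A signal of 100 is itself part of the rule. Apart from the kappa probe sets that list several symbols, the 10 reached 100 only in the tumour in which they were high. They are thus among the 24 through the value being counted, and this share is given as a description. Of these 10, 9 were the immunoglobulin probe sets described above, all in Notch1f/f tumour 3, where the rule held for 0.0777% of all probe sets. The other was Trbv13-2 in Notch1f/f tumour 2, against 0.0178% of all. Members made up 25.7% of the 35 probe sets high in Notch1f/f tumour 3. The other 26 included, beside Jchain and Cd79a, genes of antigen presentation, Cd74 (1829.8, against 31.6 to 247.8 elsewhere), H2-Aa and H2-Eb1, and immediate-early or heat shock genes, Fos (1504.6, against 17.8 to 60.2), Jun, Hspa1a and Hspa1b, all named after their values were seen. By chain the 10 members were 4 heavy, 5 kappa and 1 beta probe set, 7 were of the _x_at kind, and several list the same gene, so they are not 10 separate events. None of the 73 was low in 1 tumour by the mirror rule, against 0.0733% of all. Just outside the rule stood Trgv1, at 3.49-fold. The next were the Trgv4 probe sets 1450521_a_at and 1422189_x_at, at 2.73-fold and 2.63-fold, and just inside it Trbv13-2, at 4.08-fold. The next member inside was 1452417_x_at of kappa, at 6.14-fold.

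**Figure D5:**
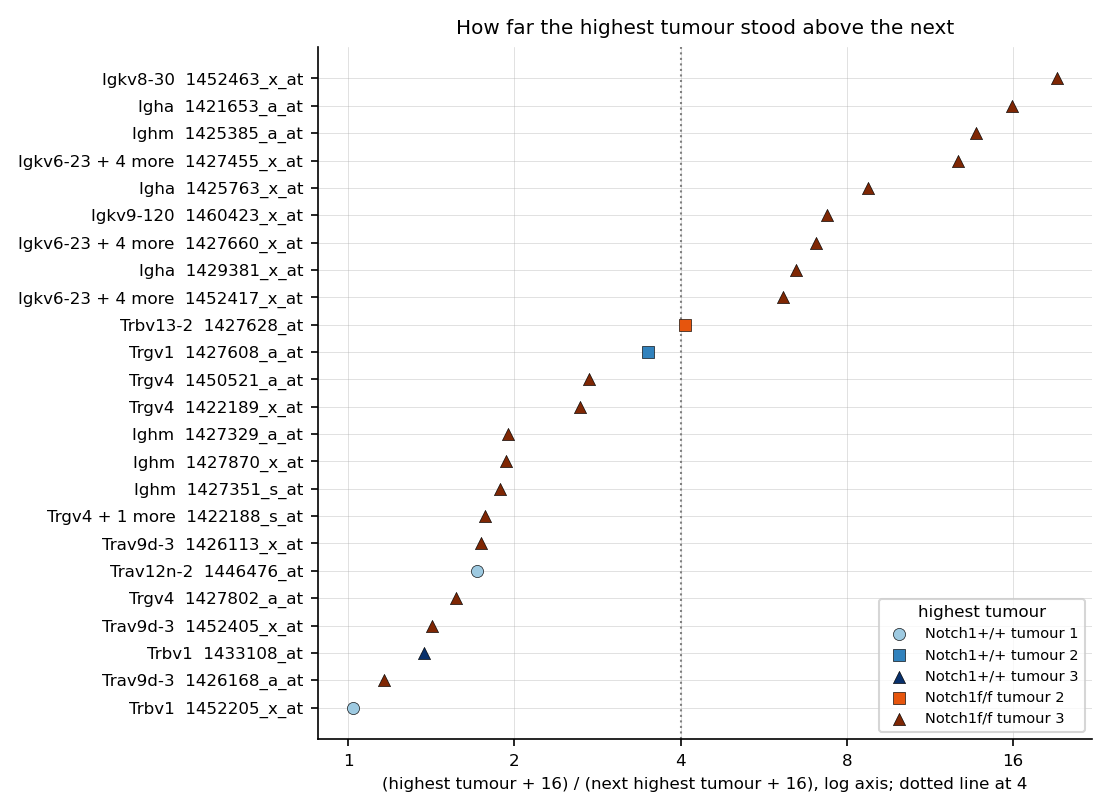
Ratio of the highest to the next highest tumour, on signal + 16 (log axis), for the 24 receptor probe sets that reached 100 in some tumour, with the point showing which tumour was highest and the dotted line at 4. The 9 immunoglobulin probe sets right of the line are all highest in Notch1f/f tumour 3, from 6.14 to 19.2, Trbv13-2 lies at 4.08 and Trgv1 at 3.49.

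Genes that build or use the T cell receptor were compared between the genotypes as well. Of 19 measured (of 22 listed), limma called 0 at an adjusted p under 0.05. At an unadjusted p under 0.05, 2 had a higher and 2 a lower mean in Notch1f/f tumours, where 5.94% and 7.6% of all probe sets did. The groups did not overlap for 2 higher and 1 lower, against 8.13% and 10.4% of all probe sets, and the median log2 difference was 0.05. The CD3 chains, which carry the receptor's signal into the cell, had differences of 0.42 ± 0.20 (Cd3d), 0.56 ± 0.22 (Cd3e), 0.37 ± 0.20 (Cd3g) and 0.32 ± 0.29 (Cd247). Among them Cd3e had 1276.8, 1399.7 and 1635.6 in the Notch1+/+ and 2001.0, 1647.5 and 2852.8 in the Notch1f/f tumours, without overlap (limma adjusted p = 0.329). Ptcra, the chain that pairs with beta before alpha is made, had a difference of -0.38 ± 0.33.

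Of the recombination genes, Rag2 had 224.1, 123.1 and 462.9 in the Notch1+/+ and 83.1, 180.4 and 13.5 in the Notch1f/f tumours. Its log2 difference was -1.60 ± 0.66 (limma adjusted p = 0.348). Notch1f/f tumour 3, the tumour with the immunoglobulin signals, was the lowest, and the groups overlapped. The difference was -0.85 without that tumour and -2.22 without Notch1f/f tumour 2. Rag1, its partner, had a difference of -0.12 ± 0.19. Dntt, which adds bases at the joins, had 1766.8, 858.6 and 2056.2 against 1541.5, 3386.8 and 2646.4 (0.71 ± 0.36). Xrcc6, a part of the Ku complex that holds broken ends, was lower in all Notch1f/f tumours, at 2716.9 to 3416.7 against 4000.3 to 4967.7 (-0.55 ± 0.15, limma adjusted p = 0.267). Lcp2, an adaptor of receptor signalling, was higher in all of them, at 690.0 to 930.5 against 466.2 to 560.5 (0.61 ± 0.19, limma adjusted p = 0.290).

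The 4 Ighmbp2 probe sets, which read no receptor segment, were dim. Their signals lay between 1.5 and 63.0 in the Notch1+/+ and between 7.1 and 86.7 in the Notch1f/f tumours. The groups did not overlap on 1 of them, 1450091_at, at 9.1 to 12.6 against 13.1 to 21.4 (log2 difference 0.25 ± 0.19, limma adjusted p = 0.563).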

How the data were processed

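Per the submitters' processing notes, the authors used MAS5, with no version given, and deposited 1 intensity per probe set and array, and each array had been scaled so that the mean of the middle 96% was the same. Detection calls were not used here. Symbols came from the platform annotation and a RefSeq gene table (GRCm38.p6), which changed 0 of the members' symbols. That table served for names, chromosomes and gene order only. Tumours are numbered in accession order within a genotype.

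Control probe sets (64) were left out. A value of 16 was added to each intensity before log2 was taken, and probe sets with a mean log2 under the 40th percentile (4.56, an intensity of 7.6) were left out, so 27022 were tested. A linear model per probe set, with the variance moderated along its trend with intensity, was fitted in limma 3.58.1 (R 4.3.3) and tested two-sided, with Benjamini-Hochberg adjustment over all 27022. The labels give no batch or pairing. On simulated arrays with independent noise, the model called 11.9% of the probe sets made to differ by a log2 value of 1, 86.6% of those at 2 and 95.5% of those at 3, and 6 of its 135 calls were false. That noise followed the variance trend of the whole array and held no single-tumour high signals. These shares therefore cannot be carried over to members that vary widely between tumours.

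Members named are those whose groups did not overlap (up to 6 per direction, by p), those high or low in 1 tumour, and constant regions reaching 100. From the B cell, plasma cell, gamma-delta T cell and receptor pathway lists, up to 4 genes with the smallest p are named. CD3 and recombinase genes were added to these. Other members are given for their chain, and they and the other list genes named were chosen after their values were seen. A list gene is read by its brightest probe set. Listed genes beyond those measured are not reported here. The members and lists were chosen with earlier results of these data known. Alternatives were a pseudocount of 1 or 64, no filter or the 60th percentile, quantile normalisation, median centring, no trend, array weights, a threshold of 0.10, each tumour left out, 2-fold or 8-fold and signals of 50 or 200 for the rule on 1 tumour, members with 1 symbol, and members without Ighmbp2. No sequences are shown. Python 3.11.15 with matplotlib 3.10.9 drew the figures.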

Additional observations from a re-analysis of the deposited data

How the results depend on the processing

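The count of members called stayed at 0 under all 17 alternatives, and the median log2 difference of the members kept its sign under the 14 run, between 0.07 (without Notch1f/f tumour 3) and 0.61. The count whose groups did not overlap, 8, was 3 of 24 with the 60th percentile filter (12.5%, against 20.3% of all probe sets), where fewer members were tested, and 8 to 18 with a tumour left out (18.2% to 41.9%, against 25.5% to 37.3% of all). Members high in 1 tumour, 10, were 5 with an 8-fold rule, all in Notch1f/f tumour 3, 7 over members with 1 symbol and 8 to 13 under the other alternatives. Members low in 1 tumour, 0, were 1 with a 2-fold rule, Ighm 1427351_s_at in Notch1+/+ tumour 2. Over the 41 probe sets that the naming rule gives, 543 of 555 recomputed log2 differences kept their direction and their side of the threshold, and 12 turned their sign. Part of the 41 were named because their groups did not overlap, so leaving out a tumour could not turn their sign. The 543 therefore partly follow from the naming rule. Members outside the 41 turned as well, among them Trgv1 (0.45 without Notch1+/+ tumour 2) and 1422188_s_at (-0.08 without Notch1f/f tumour 3). Without Notch1+/+ tumour 3, Trav9d-3 1426168_a_at and 1452405_x_at turned to -0.14 and -0.04. The turns within the 41 follow. Leaving out Notch1f/f tumour 3 turned Ighm 1425385_a_at to -1.63, Ighm 1427870_x_at to -0.36, Igha to -0.49 (1421653_a_at), -0.80 (1425763_x_at) and -0.76 (1429381_x_at), and Jchain to -0.01. Array weights turned Ighm 1425385_a_at to -0.55, Igha 1425763_x_at to -0.03 and Ighm 1427870_x_at to -0.04. A pseudocount of 1 turned Ighm 1425385_a_at to -0.56, as did leaving out Notch1+/+ tumour 1, to -0.10. Blk was at 0.31 without Notch1+/+ tumour 2. With a tumour left out these probe sets ranged from -1.63 to 1.32 and -0.36 to 0.40 (Ighm), -0.49 to 2.14, -0.80 to 1.55 and -0.76 to 1.22 (Igha, same order), -0.01 to 1.70 (Jchain) and -1.11 to 0.31 (Blk). Apart from the counts that rest on fewer probe sets or tumours, the cause was not tested. No paired analysis was possible because the labels give the tumours no shared numbers. With 3 arrays per group and no detection calls, differences of dim probe sets are least precise.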

Other observations

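Some probe sets with no symbol in the annotation used were high in the tumours in which receptor members stood out, and they were chosen after their values were seen. In Notch1+/+ tumour 2, the tumour highest for Trgv1, 1427666_a_at had a signal of 5219.7 against 0.8 to 74.9 in the other 5 tumours, and 1427667_s_at had 6549.6 against 4.4 to 146.0. On the scale of signal + 16 these lay 57.6-fold and 40.5-fold above the next tumour. In Notch1f/f tumour 2, the tumour highest for Trbv13-2 and Prss2, 1426158_at had 1124.0 against 1.1 to 141.9, and 1427765_a_at had 147.3 against 0.5 to 6.6. In Notch1f/f tumour 3, the tumour with the immunoglobulin signals, 1424631_a_at had 329.5 against 6.2 to 23.1. There 1428720_s_at had 172.7 against 1.3 to 20.0, and 1426174_s_at had 111.2 against 1.3 to 13.1. Notch1+/+ tumour 3, in which no member was high by the rule, had such a probe set too, 1418778_at, at 209.9 against 10.2 to 36.9. What these probe sets read was not looked up.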
